A study of Mus musculus with 6 samples.

Results

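The genes described are 45 mouse genes for the proteins that license replication origins and build the replication fork. They were taken from the table of read counts by gene symbol, and all 45 were found among its 27179 genes. All 45 also had enough reads to be among the 12800 genes tested. The cells were C2C12, a mouse myoblast line that multiplies in serum-rich medium and, once serum is withdrawn, fuses to form myotubes with many nuclei. In the myoblast group (3 libraries) the cells were kept below confluence in high glucose DMEM with 10% FBS. In the myotube group (3 libraries) they stayed at 100% confluence for 3 days, after which the medium held 2% horse serum with insulin, transferrin, selenium and ethanolamine for 5 days. Glutamine was at 4 mM in both media. Serum, the supplement, cell density and differentiation changed together between the groups and cannot be told apart. All libraries come from 1 cell line, the labels speak of a triplicate harvest without naming separate cultures, and p-values may therefore measure technical spread only.

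Before S phase, the origin recognition complex (ORC) sits on chromatin, and with Cdc6 and Cdt1 it loads the ring-shaped MCM2-7 helicase, a step called licensing; geminin (Gmnn) blocks Cdt1 so that an origin is licensed once per cycle. The kinase Cdc7 with its activator Dbf4 then fires the origin: Cdc45 and the GINS complex join MCM2-7 to form the active CMG helicase, polymerase alpha-primase starts each strand, polymerases epsilon and delta extend the strands with the clamp Pcna and its loader RFC, RPA covers single-stranded DNA, and Fen1 and Lig1 join Okazaki fragments. Myoblasts leave the cell cycle when they form myotubes, and many genes of this machinery are textbook targets of the E2F transcription factors, which are held in check by the retinoblastoma family in cells that do not divide.

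Promoter sequences of some members are shown to give the letters behind the motif counts reported further on. They come from RefSeq windows of GRCm38.p6 and are written 5′ to 3′ on the gene's strand, with base -1 just before the annotated start. Capitals mark E2F words and CCAAT boxes, both read on either strand. The E2F words are TTTCCCGC, TTTCGCGC, TTTGCCGC or TTTGGCGC, and they may overlap. Every printed stretch carries an E2F word, which 21 of the 37 members with a window lack, so the stretches do not represent all members. The first 4 belong to genes that fell steeply: Cdc6 (chr11:98907982-98908150, plus strand), Mcm5 (chr8:75109339-75109508, plus strand), Mcm6 (chr1:128359706-128359875, minus strand) and Orc1 (chr4:108579339-108579453, plus strand). In the GENCODE M21 annotation the Mcm5 and Mcm6 stretches overlap no exon, the Cdc6 stretch lies in the first intron of a transcript that starts further upstream, and the last 31 bases of the Orc1 stretch are exonic in noncoding Orc1 transcripts.
Cdc6: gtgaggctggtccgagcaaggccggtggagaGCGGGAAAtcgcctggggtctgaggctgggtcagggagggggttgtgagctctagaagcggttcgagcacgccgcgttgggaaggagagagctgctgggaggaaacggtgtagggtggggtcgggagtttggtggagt
Mcm5: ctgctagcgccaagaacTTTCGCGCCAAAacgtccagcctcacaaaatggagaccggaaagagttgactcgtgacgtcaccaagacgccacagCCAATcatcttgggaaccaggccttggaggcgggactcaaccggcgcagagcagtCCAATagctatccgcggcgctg
Mcm6: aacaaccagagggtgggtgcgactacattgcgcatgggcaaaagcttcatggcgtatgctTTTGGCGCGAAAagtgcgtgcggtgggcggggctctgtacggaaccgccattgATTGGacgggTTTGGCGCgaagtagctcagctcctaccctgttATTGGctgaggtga
Orc1: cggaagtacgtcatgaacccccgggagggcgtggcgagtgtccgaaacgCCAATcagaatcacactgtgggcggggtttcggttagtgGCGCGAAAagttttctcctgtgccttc
The other 3 are the E2F words, with their flanks, of the members that carried one without being called lower by more than 2-fold. They are Orc3 (chr4:34614966-34614993, minus strand, inside an exon of the divergent neighbour Rars2), Gins3 (chr8:95633508-95633535, plus strand, exonic in a longer Gins3 transcript) and Mcm8 (chr2:132816170-132816190, plus strand, in the first exon after the start).
Orc3: catgcctcccTTTCCCGCacgccccgcc
Gins3: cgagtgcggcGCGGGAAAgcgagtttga
Mcm8: cgtcatagacGCGCCAAAaaa

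Library totals were 10076945 to 11723881 counts in myoblasts and 7370169 to 8339589 counts in myotubes. All 8 myotube markers were higher in myotubes, with a summed level of 307 to 328 CPM (read counts scaled to a common library size, here by the TMM method) in myoblast libraries and 15727 to 16836 CPM in myotube libraries. All 8 markers of cycling cells were lower, at 1926 to 1951 CPM and 148 to 159 CPM. Of 8 markers of undifferentiated myoblasts and reserve cells, 5 were lower, 2 were higher and 1 was not called, and their sum was 983 to 1012 CPM against 769 to 802 CPM. Lists of 4 osteoblast, 4 leukocyte and 4 endothelial markers summed to at most 2.65 CPM in any library, and 4 adipocyte markers, nearly all of it Cebpa, to 16.4 to 18.7 CPM in myoblasts and 7.96 to 9.34 CPM in myotubes. In bulk RNA, fewer cells of a type and less RNA per cell cannot be told apart, so the fall of a replication gene can be either, and the part that undivided reserve cells have in the remaining level was not tested.

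The machinery as a whole was lower in myotubes, but not evenly. Of the 45 members, 43 were lower and 2, Orc3 and Orc4, were higher (edgeR quasi-likelihood test, Benjamini-Hochberg adjusted over all tested genes, threshold 0.05). Among all tested genes 39.2% were lower and 40.2% were higher. In a test against a 2-fold change, 31 members were lower by more than 2-fold, where 9.20% of all tested genes were. The median member had a log2 change of -2.26, which is 20.9% of the myoblast level, beside a median of 0.02 for all tested genes. The 3 myotube values lay below the 3 myoblast values for 43 members, against 39.9% of tested genes. Summed over the members, the level fell from 3005 ± 24.8 CPM to 886 ± 5.32 CPM (SD over the 3 libraries of a group). No library was high or low for most members: the median deviation of the members from their group mean was -0.02 to 0.01 on the log2 scale in each of the 6 libraries.

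The 14 members not called lower by more than 2-fold, here said to resist the fall, were Orc2, Orc3, Orc4, Orc5, Orc6, Mcm8, Mcm9, Gins3, Gins4, Pold2, Rfc1, Rfc2, Rpa2 and Rpa3. The least of the called falls was that of Pola2, at -1.46, and the steepest of the others that of Mcm8, at -1.17. For Mcm8, Mcm9, Gins3, Rfc2, Rpa2 and, barely, Orc6 (-1.01 to -0.75) the 95% interval of the log2 change spanned -1, so a fall of more than 2-fold is possible for them. The other 8 had estimates between -0.80 and 0.57. The 31 called members included all 6 subunits of MCM2-7 and all of the licensing loaders and their inhibitor. They also included all of the firing kinase, polymerase alpha-primase and the Okazaki fragment enzymes, and Pole and Pole2 of polymerase epsilon. Resisting subunits came from ORC (5 of 6), MCM8-9 (2 of 2), the CMG cofactors with Mcm10 (2 of 6), polymerase delta (1 of 3), the clamp and its loader (2 of 6) and RPA (2 of 3).

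**Figure D1:**
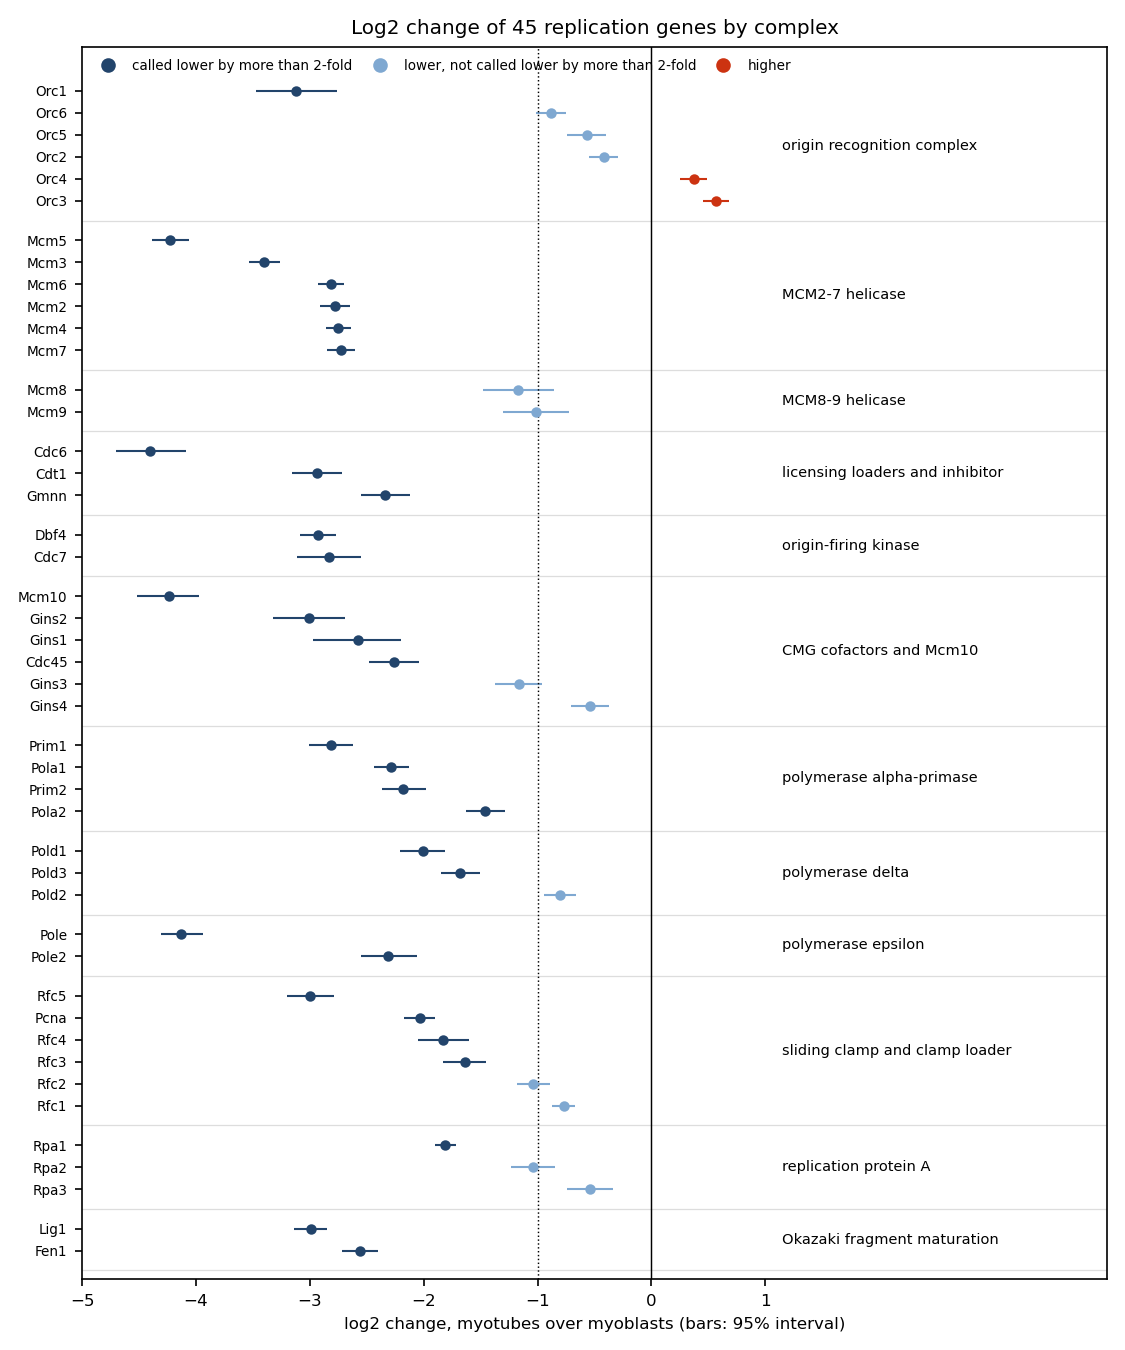
Log2 change of each of the 45 members in myotubes over myoblasts (points) with its 95% interval (bars), grouped by complex; the solid line marks no change and the dotted line a 2-fold fall. MCM2-7 lies wholly left of the dotted line, from -4.23 to -2.73, whereas ORC runs from -3.12 to 0.57.

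The ORC subunits went separate ways while their sum stayed near the myoblast level. The 6 genes together gave 301 ± 6.91 CPM in myoblasts and 286 ± 15.9 CPM in myotubes, 95% of the myoblast level. Orc1, the ATPase subunit that in mammalian cells comes and goes with the cycle, was at 15.5, 15.9 and 16.8 CPM in myoblasts and at 2.28, 1.22 and 2.02 CPM in myotubes. Its log2 change was -3.12 (SE 0.18, adjusted p = 2.82e-14 by edgeR), with all myotube values far below the myoblast ones and only 16, 9 and 16 reads behind them. The gene lies at chr4:108579423-108614833 (plus strand, GRCm38).

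Orc3 and Orc4 rose. Orc3, a core subunit that binds Orc2, gave 75.1, 75.2 and 80.6 CPM in myoblasts and 106, 111 and 124 CPM in myotubes (log2 change 0.57, SE 0.06, adjusted p = 1.37e-09 by edgeR). Orc4, another ATPase-fold subunit of the core, gave 53.6, 54.8 and 57.7 CPM and then 67.8, 71.2 and 75.4 CPM (log2 change 0.37, SE 0.06, adjusted p = 3.41e-06 by edgeR). Neither gene's groups overlapped, and both stayed higher under each of the 13 alternatives, at 0.42 to 0.61 for Orc3 and 0.22 to 0.41 for Orc4. Orc3 (chr4:34570796-34614944, minus strand) shared no exonic base with an antisense gene, while 7.80% of the exonic bases of Orc4 (chr2:48902824-48950277, minus strand) overlapped Acvr2a, itself higher by 0.78.

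The remaining 3 ORC genes fell by less than 2-fold as estimated. Orc2, the partner of Orc3, gave 63.4, 56.7 and 59.3 CPM in myoblasts and 41.2, 45.9 and 46.9 CPM in myotubes, a log2 change of -0.42 (SE 0.07). Orc5, a core ATPase subunit, gave 31.9, 28.9 and 28.5 CPM and then 19.8, 20.7 and 19.5 CPM, a change of -0.57 (SE 0.09). Orc6, the small and least tightly held subunit, had the steepest of these falls, from 62.1, 62.1 and 64.4 CPM to 32.0, 36.5 and 33.9 CPM, a change of -0.88 (SE 0.07). All 3 were called lower with no overlap between the groups. Of the exonic bases of Orc2, 29.8% overlap Nif3l1 on the other strand, so its value is uncertain.

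**Figure D2:**
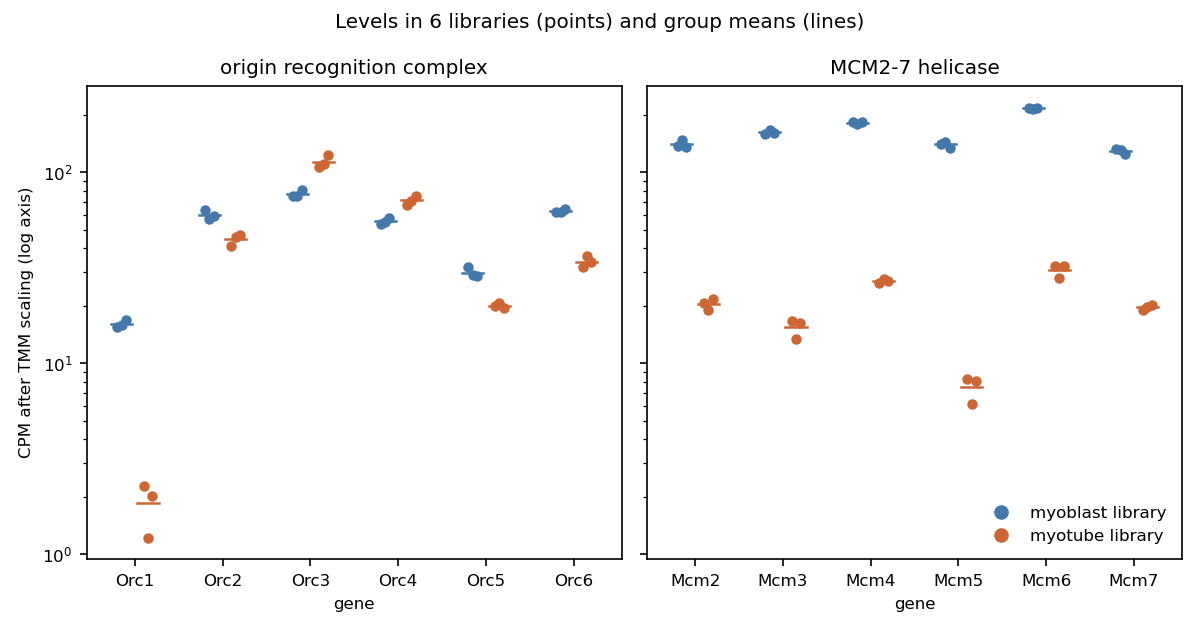
Level of each ORC subunit (left) and MCM2-7 subunit (right) in the 6 libraries, in CPM on a log axis; points are libraries and short lines are group means. Orc3 and Orc4 lie higher in myotubes, Orc1 falls to 1.22 to 2.28 CPM, and all 6 MCM genes drop together.

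MCM2-7, the helicase that ORC loads, fell in every subunit. Its summed level went from 972 ± 13.1 CPM to 121 ± 6.23 CPM (SD, n = 3), 12.4% of the myoblast level. Mcm5, at chr8:75109569-75128439, fell furthest, from 142, 144 and 135 CPM to 8.28, 6.09 and 8.08 CPM (log2 change -4.23, SE 0.08, adjusted p = 3.45e-24 by edgeR). Mcm7 fell least, from 133, 132 and 125 CPM to 19.0, 19.8 and 20.1 CPM (log2 change -2.73, SE 0.07, adjusted p = 1.72e-22 by edgeR), although 34.2% of its 50-base windows also occur in other transcripts. Mcm3, at -3.40, stood between them, and Mcm2, Mcm4, Mcm6 and Mcm7 lay within -2.81 to -2.73. Within the ring, then, 4 subunits kept nearly the same proportions and Mcm5 and Mcm3 fell below them.

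The paralogues Mcm8 and Mcm9 form a separate helicase that is known for recombination repair rather than licensing. Mcm8 gave 14.0, 10.5 and 13.3 CPM in myoblasts and 6.28, 5.55 and 4.93 CPM in myotubes (log2 change -1.17, SE 0.16). Mcm9 gave 14.2, 11.4 and 12.2 CPM and then 7.42, 5.41 and 5.94 CPM (log2 change -1.01, SE 0.15). Both were called lower, and neither passed the test against 2-fold (adjusted p = 0.212 and 0.831 by edgeR). Of the exonic bases of Mcm9, 19.2% overlap Asf1a on the other strand, which was not called (log2 change 0.02), so the value for Mcm9 is uncertain. Relative to Mcm2 in the same library, log2((CPM + 1)/(CPM + 1)) rose by 1.68 for Mcm8 and by 1.81 for Mcm9, with no overlap between the groups. For every such ratio the exact two-sided permutation p is 0.1, the smallest that 3 against 3 libraries allow, and it is 0.1 also after adjustment over the 8 ratios computed.

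The loaders and their inhibitor fell strongly. Cdc6, the ATPase that joins ORC to recruit the helicase, had the steepest fall of all members, from 40.4, 39.4 and 34.0 CPM to 1.71, 2.17 and 1.52 CPM (log2 change -4.40, SE 0.15, adjusted p = 6.53e-19 by edgeR). Its myotube values rest on 12, 16 and 12 reads. Cdt1, the partner that brings MCM2-7, fell by 2.94 on the log2 scale, to 13.0% of the myoblast level. Gmnn, its inhibitor, went from 39.6, 38.9 and 39.8 CPM to 7.14, 9.88 and 6.44 CPM (log2 change -2.34, SE 0.11). The log2 ratio of Gmnn to Cdt1 was -0.25, -0.13 and -0.16 in myoblasts and 0.48, 0.70 and -0.07 in myotubes. Myotube library 3 came close to the myoblasts, and the mean difference of 0.55 was 0.77 without it and 0.38 without myotube library 2.

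The kinase that fires origins fell in both subunits. Dbf4, the activator, went from 81.7, 75.0 and 76.6 CPM to 10.1, 10.8 and 9.60 CPM, a log2 change of -2.93 (SE 0.08). Cdc7, the catalytic subunit, went from 28.2, 24.9 and 25.6 CPM to 4.71, 3.25 and 3.16 CPM, a change of -2.83 (SE 0.14). The groups did not overlap for either gene. Their ratio differed by -0.27 between groups with an offset of 1 CPM and by -0.09 with no offset (exact permutation p = 1), so no shift between the partners was shown.

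Among the proteins that turn the loaded ring into a running helicase, Mcm10 fell furthest and the GINS subunits split. Mcm10, which acts at helicase activation, went from 42.3, 38.4 and 37.1 CPM to 2.00, 2.03 and 2.15 CPM (log2 change -4.24, SE 0.14, adjusted p = 1.79e-19 by edgeR). Cdc45, the CMG subunit that GINS helps to hold, changed by -2.26, Gins1 by -2.58 and Gins2 by -3.01. Of the exonic bases of Gins2, 67.3% overlap Gse1, which was lower by 0.69 on the log2 scale, so the value for Gins2 is uncertain. Gins3 went from 25.8, 29.4 and 25.5 CPM to 12, 13.1 and 11.1 CPM (log2 change -1.16, SE 0.11; adjusted p = 0.0990 against 2-fold by edgeR). Gins4 fell least, from 38.6, 31.5 and 35.6 CPM to 24.7, 24.4 and 23.6 CPM (log2 change -0.54, SE 0.09, adjusted p = 3.98e-06 by edgeR). The 4 GINS proteins form a complex of equal parts, yet their log2 changes ran from -3.01 to -0.54. The 95% intervals of Gins1, -2.97 to -2.20, and of Gins4, -0.71 to -0.37, did not meet; the difference itself was not tested.

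Polymerase alpha-primase, which lays down the RNA-DNA primers, was lower by more than 2-fold in all 4 subunits. The primase catalytic subunit Prim1 fell furthest, from 60.0, 51.9 and 54.8 CPM to 7.99, 7.71 and 7.96 CPM (log2 change -2.81, SE 0.10). The regulatory subunit Pola2 fell least, from 58.0, 60.1 and 55.8 CPM to 20.3, 25.0 and 18.1 CPM (log2 change -1.46, SE 0.08, adjusted p = 2.95e-14 by edgeR). Pola1, the polymerase subunit, changed by -2.29 and Prim2, the large primase subunit, by -2.18. The sum of the 4 went from 221 ± 4.53 CPM to 51.8 ± 4.96 CPM.

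The leading and lagging strand polymerases fell unequally. Pole, the catalytic subunit of polymerase epsilon, went from 85.9, 84.6 and 83.8 CPM to 4.99, 5.28 and 4.29 CPM (log2 change -4.13, SE 0.09, adjusted p = 5.06e-23 by edgeR). Pole2, its regulatory subunit, went from 24.4, 25.3 and 26.2 CPM to 4.99, 4.47 and 5.81 CPM (log2 change -2.31, SE 0.12). Together Pole and Pole2 stood at 9.04% of the myoblast level, the lowest share among the 12 complexes as made up of members. This share leaves out the subunits Pole3 and Pole4, which are not among the 45 genes and changed by -0.32 and -0.11. Pold1, the catalytic subunit of polymerase delta, went from 41.1, 40.7 and 44.6 CPM to 10.8, 12.2 and 8.46 CPM (log2 change -2.01, SE 0.10). Within libraries, Pold1 over Pole stood at -0.99 ± 0.08 in the myoblast group and 0.96 ± 0.12 in the myotube group on the log2 scale (SD, n = 3; exact permutation p = 0.1), a shift of 1.96.

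Within polymerase delta, Pold3 changed by -1.68 and Pold2 resisted. Pold2, the regulatory subunit that links the catalytic subunit to Pold3, gave 53.6, 55.9 and 49.6 CPM in myoblasts and 30.4, 29.8 and 31.3 CPM in myotubes (log2 change -0.80, SE 0.07, adjusted p = 1.36e-10 by edgeR). The small subunits that are not among the 45 genes did not follow the catalytic ones either. Pold4, the smallest polymerase delta subunit, rose from 22.0, 19.4 and 21.3 CPM to 49.2, 44.5 and 44.0 CPM (log2 change 1.13, SE 0.08, adjusted p = 1.20e-12 by edgeR), although 27.7% of its 50-base windows recur in another transcript. Pole3, a histone-fold subunit of polymerase epsilon, was lower by 0.32 on the log2 scale, and its partner Pole4 was not called (log2 change -0.11, adjusted p = 0.179 by edgeR).

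The clamp Pcna, which tethers the polymerases, went from 86.1, 90.6 and 92.5 CPM to 23.0, 21.4 and 21.5 CPM, a log2 change of -2.03, but 31.8% of its 50-base windows are shared with the pseudogene Pcna-ps2. Its loader is a ring of 5 RFC subunits, and these were spread widely. Rfc5 fell furthest, from 43.9, 44.5 and 44.8 CPM to 4.99, 5.96 and 5.68 CPM (log2 change -3.00, SE 0.10). Rfc1, the large subunit that is particular to the replicative loader, fell least, from 116, 121 and 117 CPM to 69.5, 69.4 and 68.6 CPM (log2 change -0.77, SE 0.05, adjusted p = 3.33e-13 by edgeR). Rfc2 went from 59.0, 65.9 and 60.2 CPM to 30.3, 27.5 and 32.5 CPM (log2 change -1.04, SE 0.07; adjusted p = 0.492 against 2-fold by edgeR). The small subunits Rfc3 and Rfc4, at -1.64 and -1.83, lay between. Genes on the other strand overlap 15.1% of the exonic bases of Rfc2, 12.65% of Rfc4 and 10.69% of Rfc5. In the same order, 19.77%, 11.14% and 23.04% of their 50-base windows recur in other transcripts, so these 3 values are uncertain. Rfc1 and Rfc3 had neither. Rfc1 over Rfc4 stood at 1.98 ± 0.09 and 2.94 ± 0.22 on the log2 scale in the myoblast and myotube libraries (SD, n = 3).

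RPA, the trimer that coats single-stranded DNA, fell in steps from its largest to its smallest subunit. Rpa1, which carries most of the DNA-binding folds, went from 198, 200 and 194 CPM to 55.4, 57.4 and 55.8 CPM (log2 change -1.81, SE 0.05, adjusted p = 1.88e-21 by edgeR). Rpa2, the subunit phosphorylated at stalled forks, went from 44.3, 41.0 and 47.2 CPM to 26.0, 21.0 and 17.8 CPM (log2 change -1.04, SE 0.10). It was not called lower by more than 2-fold (adjusted p = 0.571 by edgeR), but was without myotube library 1, its highest myotube value (adjusted p = 0.0454). Rpa3 went from 23.4, 20.5 and 22.3 CPM to 17.0, 13.8 and 14.8 CPM (log2 change -0.54, SE 0.10, adjusted p = 4.36e-05 by edgeR). The groups of all 3 genes did not overlap, and the 95% intervals of the 3 log2 changes did not meet, though the differences between subunits were not tested.

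Both enzymes that finish Okazaki fragments fell. Lig1, the ligase, went from 94.7, 97.7 and 93.7 CPM to 12.1, 11.1 and 12.6 CPM (log2 change -2.99, SE 0.08). Fen1, the flap nuclease, went from 72.2, 70.1 and 68.2 CPM to 13.1, 10.3 and 12.3 CPM (log2 change -2.56, SE 0.08). Of the exonic bases of Fen1, 84.2% overlap genes on the other strand, so its count is uncertain. Its sequence recurs in Gm10143 and in Tmem258, of which Tmem258 was higher by 0.31. The share that belongs to each was not computed. Leaving out Fen1 and the other 5 members with more than 20% of exonic bases or windows shared (Gins2, Orc2, Mcm7, Pcna and Rfc5), 37 of 39 members were lower, 26 by more than 2-fold, with a median log2 change of -2.18.

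**Figure D3:**
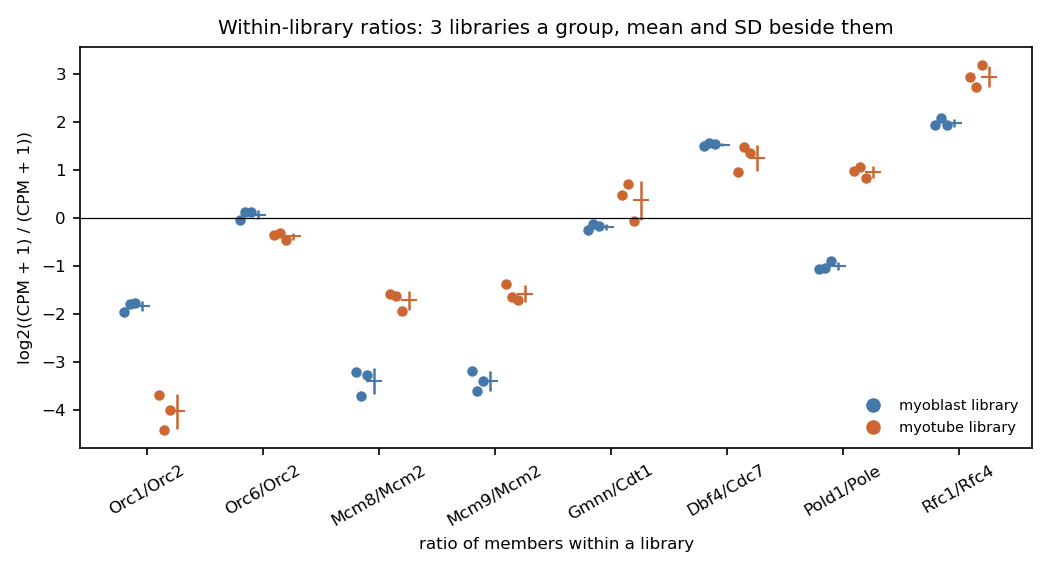
Log2((CPM + 1)/(CPM + 1)) of 8 pairs of members in each library (points), with the group mean and SD (n = 3) beside them. Orc1 to Orc2 drops from -1.83 to -4.02 and Pold1 to Pole rises from -0.99 to 0.96, while Dbf4 to Cdc7 moves least.

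The make-up of the machinery differed accordingly. ORC supplied 10.0 ± 0.265% of all CPM of the 45 genes in myoblasts and 32.3 ± 1.60% in myotubes, and MCM2-7 supplied 32.3 ± 0.417% and 13.6 ± 0.706% (SD, n = 3 each). The clamp and its loader went from 12.8 ± 0.362% to 16.7 ± 0.165%. The 6 CMG cofactors with Mcm10 kept nearly the same share, at 6.24 ± 0.229% and 6.06 ± 0.543%. Within ORC, Orc1 lost ground to Orc2 by 2.19 on the log2 ratio scale with the offset of 1 CPM, which is near the myotube level of Orc1, and by 2.75 with no offset. Orc6 lost ground to Orc2 by 0.45.

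Levels were compared between genes as CPM per kilobase of exon, where the exons of all annotated transcripts of a gene were merged. This merged length can exceed that of the transcripts the cells make, by an amount that differs between genes. The order of genes and the fold spans given here therefore hold for the merged length only. Whether they hold with another length was not tested. In myoblasts the highest of the 45 were Mcm4 at 50.7, Mcm6 at 46.5, Mcm3 at 43.3, Pcna at 37.4 and Rpa1 at 35.3, the last overlapping Mcm5 at 35.1. In myotubes the order was led by resisting members: Orc3 at 18.7, Gins4 at 18.0, Pold2 at 16.1, Orc6 at 13.8 and Rpa3 at 13.4. The libraries of Orc3 (17.5, 18.3 and 20.3) and Gins4 (18.3, 18.1 and 17.5) overlap, as do those of Orc6 and Rpa3, so these neighbours are not ordered. The lowest in myotubes were Mcm10 at 0.268, Cdc6 at 0.344, Pole at 0.435 and Orc1 at 0.529, where Cdc6 overlaps Pole, Pole overlaps Orc1 and Orc1 overlaps the next gene, Mcm9. MCM2-7 subunits lay within 2.51-fold of each other in myoblasts and 4.00-fold in myotubes, whereas ORC subunits spanned 5.52-fold and 35.3-fold, with Orc1 lowest in myotubes and overlapping Orc5 at the low end in myoblasts. The 6 genes of the CMG cofactors and Mcm10 spanned 5.12-fold and 67.1-fold.

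**Figure D4:**
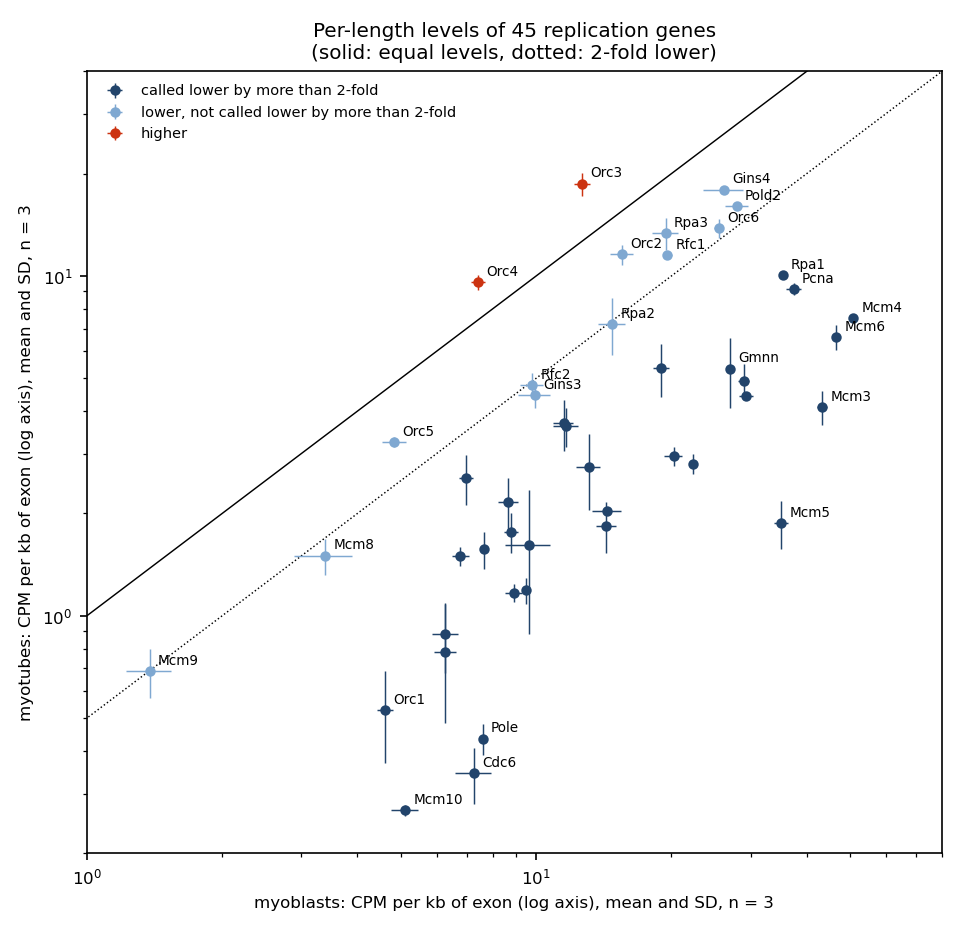
CPM per kilobase of exon of each member in myoblasts (x axis) and myotubes (y axis), both log axes, as mean and SD (n = 3); the solid line marks equal levels and the dotted line a 2-fold fall. Orc3 and Orc4 lie above the solid line, and Mcm10, Cdc6, Pole and Orc1 are lowest in myotubes by this measure, which uses the merged exon length.

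Of the 45 members, 37 had a RefSeq promoter window of 300 bases (250 before to 50 after the start). An E2F word was present in 16 of the 37 (43.2%), compared with 2.60% of all 27025 genes with a window and 4.72% of the 9890 tested ones. The words stood in 13 of 25 members lower by more than 2-fold and in 3 of the other 12, namely Orc3, Mcm8 and Gins3. As printed above, Cdc6 and Orc1 each have 1 such word before the start, while Mcm5 has an overlapping pair and Mcm6 such a pair and a further word. CCAAT (either strand) was present in 23 of 37 windows (62.2%), beside 41.1% of all genes and 43% of tested ones. It stood in 13 of 25 members lower by more than 2-fold and in 10 of the other 12, the opposite order to the E2F words. The cell cycle homology words TTTGAA and TTCGAA were present in 9 of 37 (24.3%), beside 21.7% of all genes and 16.1% of tested ones, in 7 of the 25 and 2 of the 12. Orc3 carried an E2F word and rose, and Mcm10, which fell by 4.24, carried none of these E2F words. A match is a description of letters and no evidence of binding.

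The genes around the machinery, in lists set beside the 45, moved in part with it. All 7 origin firing factors were lower, 5 by more than 2-fold, with a median log2 change of -2.70. Ticrr, which brings Cdc45 to the origin, changed by -4.26 and Wdhd1, which couples the helicase to polymerase alpha, by -3.08. Of 18 fork protection and accessory genes, 15 were lower, 11 by more than 2-fold, and 2 were higher (median -1.92). Pclaf, a Pcna-binding protein, changed by -4.76 and Chtf18, of the alternative clamp loader, by -3.99, whereas Top1, which relieves supercoils also in transcription, was higher by 0.57.

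Of 17 regulators and turnover factors of licensing, 14 were lower, 7 of them by more than 2-fold, and 1 was higher (median -0.89). Ccna2 and Ccne2, the S phase cyclins, changed by -3.96 and -3.06, and Cul4a, a scaffold of the ligase that marks Cdt1 for destruction, was higher by 0.73. Other parts of that ligase, added here after their values were seen, differed from it: the alternative scaffold Cul4b changed by -0.81 and the substrate receptor Dtl by -2.50, both called lower, and the adaptor Ddb1 was not called (0.06). Of 11 genes of chromatin assembly behind the fork, 10 were lower, 8 by more than 2-fold (median -1.46). The assembly factor subunits Chaf1b and Chaf1a changed by -3.98 and -3.63, although 52.5% of the exonic bases of Chaf1a overlap an antisense gene. Of 11 translesion, repair and repriming polymerases, 4 were lower, 1 of these by more than 2-fold, and 2 were higher, with a median of -0.11. Polq, of end joining by microhomology, changed by -3.75 and Polm, of nonhomologous end joining, by -1.12, while Polb, the base excision repair polymerase, was higher by 0.91.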

How the data were processed

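RNA from C2C12 myoblasts and day 5 myotubes (3 libraries each) was extracted with TRIzol, and stranded mRNA libraries were made, per the labels' protocols. The deposited table holds unnormalized gene counts. Per the submitters' processing notes, fastp, STAR, featureCounts and the mm10 genome were used. For their versions, the strand setting and reads with several matches, the sources used here give nothing, and values of genes with antisense partners or copies are uncertain.

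Counts of the 27179 genes were tested with edgeR 4.0.16 in R 4.3.3: filterByExpr (minimum count 10, total 15), TMM scaling, the robust quasi-likelihood test, glmTreat against a log2 change of 1, and Benjamini-Hochberg adjustment over 12800 genes at 0.05. SEs were derived from the log2 changes and their F statistics. Genes without a symbol (1049) held 0.212 to 0.257% of the counts. Replicates differed by more than sampling noise (chi-square per degree of freedom 1.35 to 3.22) and none were merged as 1 library deposited again; this does not show that they came from separate cultures. CPM are after TMM scaling; exon lengths, overlaps and copies come from GENCODE M21, and promoters from RefSeq, with Python 3.11.15. The scripts were tested on simulated data. Alternatives were other scalings, DESeq2 1.42.0, limma-voom (limma 3.58.1), other filters, a replicate block and leaving out each library.

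The members and lists were chosen with earlier results of these data known. Named are all members, per library for the extremes of each complex and each member not called lower by more than 2-fold. From each list of related genes, the text names called genes with a mean of 1 CPM or more: 2 with the greatest change in the majority direction and 1 in the other, and every called gene of lists of 3; Pole4 was added after its value was seen.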

Additional observations from a re-analysis of the deposited data

How the results depend on the processing

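Each of the 45 members kept its direction and its call of lower or higher under all 13 alternatives (585 of 585 values), and the 8 ratios kept their sign under theirs (64 of 64). With total counts in place of TMM, the median log2 change of all tested genes moved by -0.15, 5935 genes were lower and 4269 higher (5024 and 5146 with TMM), the median member changed by -2.41, and 35 members were lower by more than 2-fold, with Mcm8, Gins3, Rfc2 and Rpa2 now called. With no filter on low counts Gins3 was also called (adjusted p = 0.0459 by edgeR). Leaving out 1 library gave a median member change of -2.30 to -2.18 and 31 or 32 members lower by more than 2-fold.

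Replicate numbers are not said to mark shared cultures, and deviations of same-numbered libraries correlated at -0.002 to 0.011. With the replicate block the median member change was -2.26, 43 members were lower, 2 higher and 31 lower by more than 2-fold, and 5019 of all tested genes were lower and 5142 higher. Depth limits Orc1, Cdc6 and Mcm10, with 9 to 17 reads in each myotube library, and also Gins1, with 26, 12 and 16, and Gins2, with 24, 32 and 15. Over the 13 alternatives the log2 change of Gins1 (SE 0.20) ran from -2.99 to -2.37 and that of Gins2 (SE 0.16) from -3.29 to -2.72.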

Other observations

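Beyond the replication genes, tested genes with an E2F word in their promoter window had a median log2 change of -0.28 once the 45 genes were left out (451 genes, 55.4% lower and 17.1% lower by more than 2-fold). Genes without the word had a median of 0.03 (9402 genes, 38.9% lower and 8.74% lower by more than 2-fold). Most genes with the word were therefore not lower by more than 2-fold. These shares are a description across genes, which are not independent replicates.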
